A study of Saccharomyces cerevisiae with 4 samples.

Results

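Transcripts of the cytosolic large ribosomal subunit were compared between the wine yeast strain 59A (wild type, 2 arrays) and its sch9 mutant (2 arrays), all hybridised in a single colour, to see how the genes of its proteins differ between the strains. The genes were chosen by their array symbol, *RPL* with a number and an A, a B or no letter, or *RPP0* to *RPP2* with or without a letter. This took 80 of the 6226 features of the array. Among these, *RPP1*, encodes a subunit of RNase P and is not a ribosomal protein gene, so it is left out of all counts and 79 genes remain. They are 11 single-copy genes, 33 families with both copies measured, and *RPL18B* and *RPL20B*, whose A copies carry no named probe here. 59A is a haploid strain obtained from a spore of the wine yeast EC1118, and in the mutant the open reading frame of *SCH9* was replaced by a loxP-KanMX-loxP cassette. How many transformants were used is not known here. Both strains fermented a synthetic must with 230 g/L sugars, 142 mg/L assimilable nitrogen and 5% lipid factors at 24°C without oxygen, and cells of both were taken at the same amount of released CO2. The methods also name a medium with less nitrogen for the arrays, which the labels do not. The labels call the samples biological replicates 1 and 2 of each strain.

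The large subunit joins amino acids in its peptidyl transferase centre, passes the growing chain through an exit tunnel and recruits elongation factors with its stalk of P proteins. Most of its protein genes exist in yeast as A and B copies left by an ancient genome duplication, and many copies encode nearly the same protein. Their promoters are bound by Rap1, and the forkhead factor Fhl1 with its coactivator Ifh1 drives them in growing cells. Sch9 is a kinase downstream of TORC1, the nutrient-sensing complex that promotes the synthesis of ribosomes and represses the stress response.

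Values are log2 intensities that the authors normalised between arrays by quantiles. They state the share of a transcript in the labelled RNA, so that fewer cells with a transcript and less transcript per cell cannot be told apart, and a change in total RNA per cell is not seen. The deleted gene *SCH9* had log2 intensities of 8.72 and 8.67 in the wild type against 5.81 and 5.67 in the mutant (log FC -2.96, standard error (SE) 0.08, adjusted p = 1.3e-04). All 7 a-specific genes, those that only cells of mating type a express, were measured, and all were higher in the mutant, with array means of 8.95 and 9.04 against 11.07 and 11.07. Of 4 genes specific to alpha cells 3 were higher. These were *SAG1*, with means of 7.82 against 10.20, *MF(ALPHA)2*, with 5.89 against 7.04, and *MF(ALPHA)1*. The last had 5.59 and 5.59 in the wild type against 5.94 and 5.89 in the mutant. *STE3*, the receptor gene of alpha cells, lay between 5.69 and 5.74 on all 4 arrays. Both *MF(ALPHA)1* and *STE3* were thus near the lowest values of the arrays, 5.47 to 5.54. What part the difference in mating-type genes has in the results was not tested. Over all features the difference between replicates had a standard deviation of 0.236 in the wild type against 0.135 in the mutant.

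Most large subunit genes gave strong signals. Their log2 intensities ran from 6.42 (*RPL7B*) to 12.62 (*RPL4A*) with a median of 10.59, below the highest values on the arrays, 15.94 to 15.95. Of the 79 genes, 71 lay above the median of their array on all 4 arrays. The 6 that lay below it on all 4 were *RPL7A*, *RPL7B*, *RPL18B*, *RPL21A*, *RPL31B* and *RPL41A*, which are named here after their values were seen. The probes of different genes differ in how strongly they bind, so levels of different genes are not compared.

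Most large subunit genes had a small negative log FC in the sch9 mutant, and 67 of the 79 did not pass the test. The mean log2 intensity over the 79 genes was 10.66 (replicate 1) and 10.46 (replicate 2) for the wild type and 10.40 and 10.17 for the mutant. Both mutant arrays lay below both wild-type arrays, but the lower wild-type array and the higher mutant array were close to each other. A negative log FC (mutant minus wild type on the log2 scale) was found in 73 of 79 genes, or 92.4%, against 51.7% of all features. The median log FC was -0.23, a level of 85.4% of the wild type, whereas the median of all features was -0.01. The mean over the genes differed by -0.27 (exact two-sided permutation test over the 4 arrays, p = 0.33, the smallest value that 2 arrays against 2 allow).

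The 2 cultures of one strain differed by nearly as much as the strains did. Replicate 1 was higher than replicate 2 in 66 of 79 genes in the wild type and in 77 in the mutant, with a median difference of 0.16 and 0.23 on the log2 scale. Over all features these medians were -0.02 and -0.02. For 38 of the 79 genes, or 48.1%, the log FC was larger in size than the difference between replicates in both strains, against 57.7% of all features. Each array lay at its own position on the slide, and the part of position or culture in these differences was not tested.

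**Figure D1:**
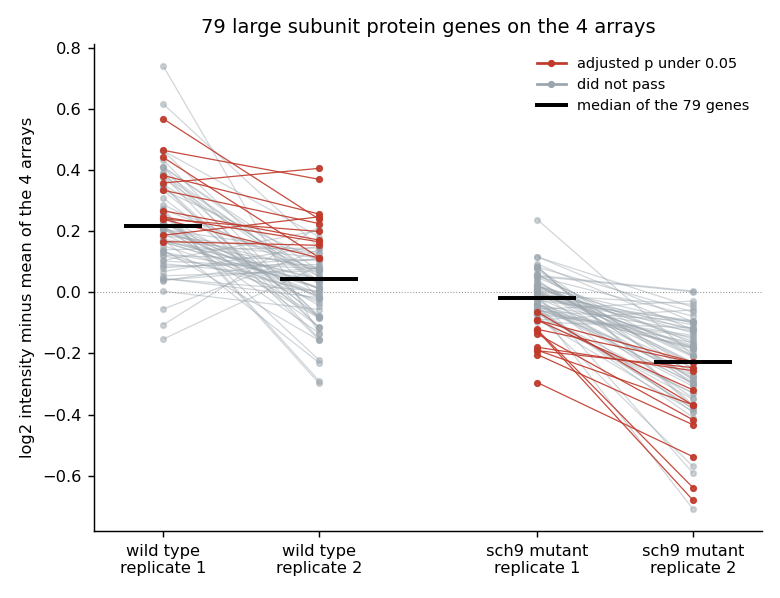
Log2 intensity of each of the 79 large subunit protein genes on the 4 arrays, minus the mean of that gene over the 4 arrays. Lines join the replicates of a strain, red marks the 12 genes with an adjusted p under 0.05 and black bars are medians. The median of replicate 2 lies below that of replicate 1 in each strain, and both medians of the mutant lie below both of the wild type.

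At an adjusted p under 0.05 (limma, Benjamini-Hochberg over all 6226 features), 12 of the 79 genes, or 15.2%, were lower in the mutant and 0 were higher. Among all features 12.1% were lower and 14.6% were higher. At an unadjusted p under 0.05, 28 genes, or 35.4%, were lower and 0 were higher, against 21.0% and 21.1% of all features. How the share of large subunit genes called lower stood to that of all features thus changed with the threshold. With the criterion of the methods, a log FC below -1 in addition, 0 of the 79 genes were down-regulated, against 1.64% of all features, and 0 were so at an unadjusted p. Counted by the arrays alone, both mutant values lay below both wild-type values in 48 of 79 genes, or 60.8%, against 35.8% of all features, and above them in 0 genes, against 33.7%.

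The calls depended on single arrays, for all features as for these genes. Without replicate 2 of the mutant 0 genes were lower, with 0.932% of all features lower. Without its replicate 1 there were 6, or 7.59% against 3.08% of all features, among them 4 of the 12, namely *RPL30*, *RPL43B*, *RPL9A* and *RPP2B*. Without replicate 2 of the wild type 36 were lower, or 45.6% against 20.4% of all features. Without replicate 1 of the wild type 12 were lower, 10 of them shared with the full set, and this share of 15.2% lay below the 18.9% of all features. In that fit 2 genes were higher, *RPL13B* with a log FC of 0.26 and *RPL17A* with 0.30. The number of genes with a negative log FC ranged from 66 to 77 over these 4 fits.

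*RPL30* showed the largest difference. Its protein binds its own transcript and blocks its splicing. Its log2 intensities were 11.85 and 11.76 in the wild type and 11.10 and 10.85 in the mutant. This is a log FC of -0.83 (SE 0.11, adjusted p = 0.00719), a level of 56.1% of the wild type. The strains did not overlap, and the gap between them was wider than those between replicates, 0.09 and 0.24. *RPL43B* had 10.16 and 9.83 in the wild type against 9.47 and 8.92 in the mutant (log FC -0.81, SE 0.21, adjusted p = 0.0443). Here too the strains did not overlap, although the mutant replicates were 0.56 apart, and the gene did not pass without replicate 1 of the wild type (adjusted p = 0.0618).

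*RPL9A* had log2 intensities of 9.97 and 10.02 in the wild type against 9.49 and 8.97 in the mutant (log FC -0.76, SE 0.17, adjusted p = 0.0316). The wild-type arrays were nearly equal, and the second mutant array was the lower one by 0.52. Both genes of the *RPL22* family, whose protein is dispensable for growth, were among the lowest values without passing the test. *RPL22B* had 9.10 and 8.63 against 8.43 and 7.78 (log FC -0.76, SE 0.26, adjusted p = 0.0842). *RPL22A* had 11.66 and 11.38 against 11.12 and 10.63 (log FC -0.64, SE 0.19, adjusted p = 0.0586). In both copies the strains did not overlap, but replicate 1 exceeded replicate 2 by 0.28 to 0.66 in each strain.

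**Figure D2:**
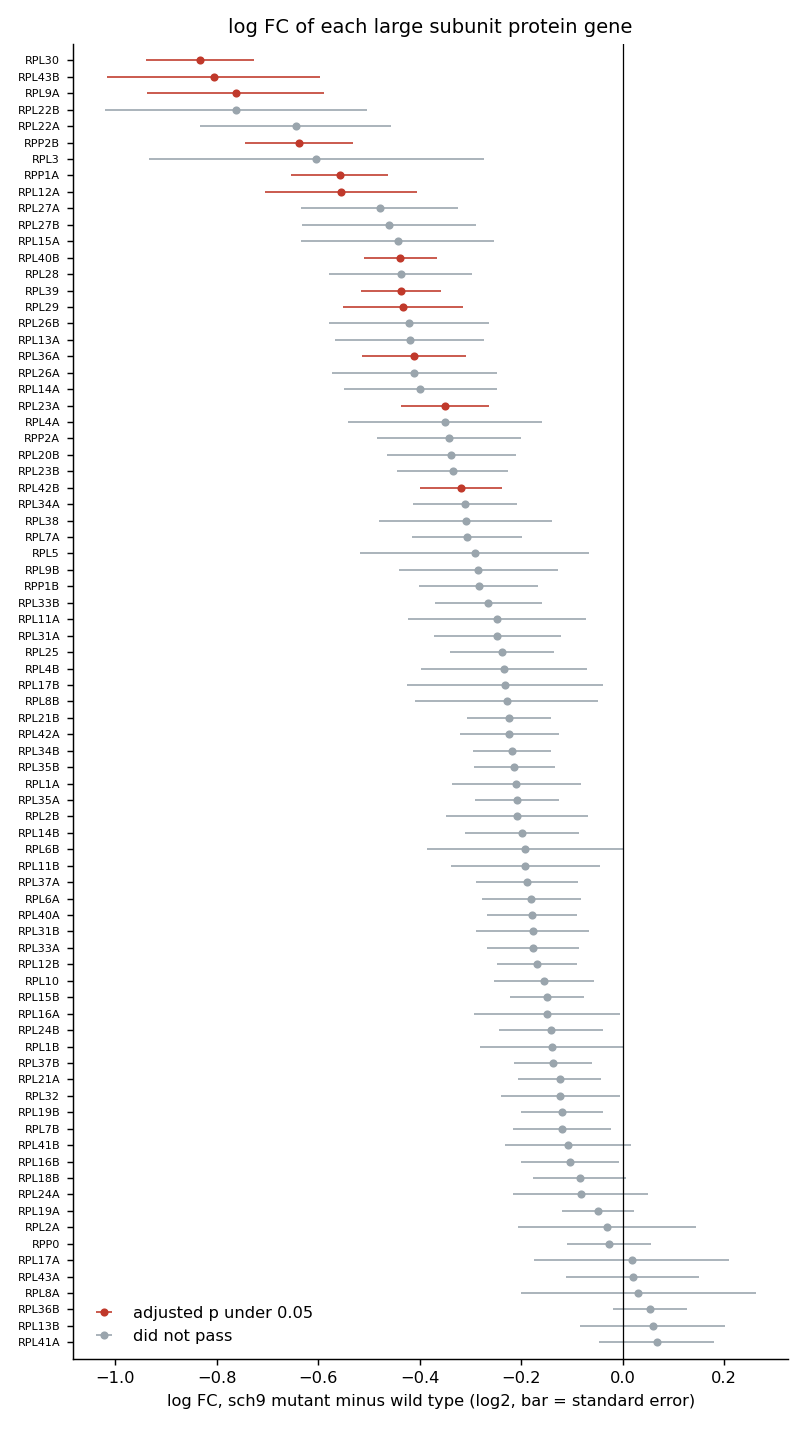
Log FC of each of the 79 large subunit protein genes, sch9 mutant minus wild type on the log2 scale, in ascending order, with bars of 1 standard error from limma. Red points passed at an adjusted p under 0.05. The values run from -0.83 in *RPL30* to 0.07 in *RPL41A*, and some genes with a low log FC, such as *RPL22B* and *RPL3*, have wide bars and did not pass.

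The stalk of the large subunit consists of Rpp0, which anchors it to the rRNA, and of the acidic proteins P1 and P2, which contact elongation factors. Rpl12 lies at its base. This group was formed after values were seen. Of its 7 genes 3 were lower, or 42.9% against 12.1% of all features. The other 4 did not pass, 0 being higher, and the median log FC was -0.34. *RPP2B* had log2 intensities of 12.03 and 11.90 in the wild type against 11.44 and 11.21 in the mutant (log FC -0.64, SE 0.11, adjusted p = 0.0148). *RPP1A* had 9.56 and 9.45 against 9.03 and 8.85 (log FC -0.56, SE 0.09, adjusted p = 0.0154). Both fell, with the strains apart and replicates closer to each other than to the other strain.

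*RPL12A* passed as well, with 10.55 and 10.22 in the wild type and 9.97 and 9.69 in the mutant (log FC -0.55, SE 0.15, adjusted p = 0.0484), but not without replicate 1 of the wild type, where it had an adjusted p of 0.0567. The other acidic protein genes were *RPP2A*, with 10.65 and 10.45 against 10.38 and 10.03 (log FC -0.34, adjusted p = 0.131), and *RPP1B*, with 9.71 and 9.72 against 9.58 and 9.28 (log FC -0.28, adjusted p = 0.129). In both the strains were apart by less than the mutant replicates were from each other. *RPP0*, the single-copy gene of the group, had 12.09 and 12.03 in the wild type and 12.09 and 11.97 in the mutant. Its strains overlapped, at a log FC of -0.03 (SE 0.08, adjusted p = 0.841).

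Genes of the exit tunnel and its rim mostly had a small negative log FC. These 14 genes, grouped after values were seen, are those of Rpl4, Rpl17, Rpl19, Rpl25, Rpl26, Rpl31, Rpl35 and Rpl39. Of these 1 was lower, or 7.14% against 12.1% of all features. The other 13 did not pass, 0 being higher, and the median log FC was -0.23, as over all 79 genes. The lower one was *RPL39*, a single-copy gene whose very small protein lines the tunnel, with 12.12 and 12.02 in the wild type and 11.67 and 11.60 in the mutant (log FC -0.44, SE 0.08, adjusted p = 0.0180). Its replicates were within 0.10 of each other in both strains. *RPL25*, whose protein binds the signal recognition particle at the rim, had a log FC of -0.24 (adjusted p = 0.144).

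Genes of proteins that bind 5S rRNA, Rpl5 and Rpl11, and of those near the peptidyl transferase centre, Rpl2, Rpl3 and Rpl10, gave 0 calls. Among all features 12.1% were lower and 14.6% were higher, so 0 calls in groups this small say little. Both groups were also formed after values were seen. Over the 3 genes of the former the log FC ran from -0.29 to -0.19, and over the 4 of the latter from -0.60 to -0.03. *RPL3* had log2 intensities of 11.56 and 10.69 in the wild type against 10.81 and 10.23 in the mutant. Its log FC of -0.60 was as low as that of stalk genes which passed, but the wild-type replicates were 0.87 apart, the strains overlapped and the standard error was 0.33 (adjusted p = 0.227). *RPL10*, which joins the subunit at the end of its maturation, had a log FC of -0.16 (adjusted p = 0.287).

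Of the 11 single-copy genes 3 were lower, *RPL30*, *RPL39* and *RPL29*, beside 12.1% of all features. The median log FC over the 11 was -0.31. *RPL29*, whose protein is not essential, had 11.39 and 11.45 in the wild type and 11.14 and 10.83 in the mutant (log FC -0.43, SE 0.12, adjusted p = 0.0494). The lower calls left are *RPL40B*, which encodes a ribosomal protein fused to ubiquitin (log FC -0.44, SE 0.07, adjusted p = 0.0146), *RPL36A* (-0.41), *RPL23A* (-0.35) and *RPL42B* (-0.32). *RPL40B* had 10.80 and 10.76 in the wild type and 10.37 and 10.32 in the mutant, so that its replicates were only 0.04 and 0.06 apart.

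The 6 genes with a positive log FC all lay close to 0. They were *RPL41A* with 0.07 (SE 0.11), *RPL13B* with 0.06 (0.14), *RPL36B* with 0.05 (0.07), *RPL8A* with 0.03 (0.23), *RPL43A* with 0.02 (0.13) and *RPL17A* with 0.02 (0.19). The strains overlapped in each of them. *RPL41A*, which encodes the smallest ribosomal protein, had 7.77 and 8.01 in the wild type and 8.04 and 7.88 in the mutant. *RPL8A* had 10.08 and 9.52 against 10.05 and 9.61, and *RPL17A*, a gene of the exit tunnel, had 10.98 and 10.42 against 10.79 and 10.64. In both the wild-type replicates lay further apart than the means of the strains.

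Copies of a family were compared by their log FC, since a difference of level between probes has no meaning. In 27 of the 33 families both copies had a negative log FC. A was the more negative in 17 families and B in 16. Of the 66 genes in these families 9 were called lower, beside 12.1% of all features. In 9 families 1 copy was called lower, A in 5 and B in 4, in 0 families were both called, and in 24 neither was. The median difference between copies was 0.12 in size. Over the 33 families the log FC of A and that of B had a Pearson correlation of 0.13, given as a description, since all values come from the same 4 arrays. A call in 1 copy alone does not show that the copies differ, so the value of A minus that of B was formed within each array. The SE of its difference between strains is taken from the spread between replicates and not from limma, so it is less certain than that of single genes.

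The largest difference was in *RPL43*, whose copies are known to encode identical proteins. *RPL43A* had log2 intensities of 11.13 and 10.83 in the wild type against 11.10 and 10.89 in the mutant, while *RPL43B* was lower in the mutant as given above. A minus B was 0.96 and 0.99 in the wild type and 1.63 and 1.97 in the mutant, a difference between strains of 0.82 (SE 0.17). The wild-type arrays nearly coincided, and both mutant arrays lay far above them.

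In *RPL13*, A minus B was -1.03 and -0.98 in the wild type and -1.39 and -1.58 in the mutant, a difference of -0.48 (SE 0.10). *RPL13A* had 10.32 and 9.98 against 9.85 and 9.61 and *RPL13B* had 11.36 and 10.95 against 11.24 and 11.19, neither passing the test. The strains overlapped in *RPL13B* and not in *RPL13A*. In *RPL9*, A minus B was -0.49 and -0.39 in the wild type and -0.89 and -0.95 in the mutant, a difference of -0.48 (SE 0.06), with *RPL9B* at 10.46 and 10.40 against 10.37 and 9.92. In *RPL36*, it was -0.41 and -0.43 against -0.79 and -0.97, a difference of -0.46 (SE 0.09). *RPL36A* had 10.29 and 10.21 in the wild type and 9.96 and 9.73 in the mutant, whereas *RPL36B* stayed between 10.64 and 10.75 on all 4 arrays.

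*RPL12* and the P2 genes were the other families among the 6 with the largest difference, and *RPL15*, with -0.29 (SE 0.33) and overlapping strains, was next to the P2 genes in size. In *RPL12*, A minus B was -0.98 and -1.22 in the wild type and -1.39 and -1.58 in the mutant, a difference of -0.38 (SE 0.15), with *RPL12B* at 11.53 and 11.44 against 11.36 and 11.27. In the P2 genes, *RPP2A* minus *RPP2B* was -1.38 and -1.45 against -1.06 and -1.18, a difference of 0.29 (SE 0.07), B being the copy that was lower. In each of the 6 families, *RPL15* not included, the strains did not overlap. The exact two-sided permutation test over the 4 arrays gave p = 0.33 for each of them, the smallest value possible, and the families were picked for the size of the difference. A minus B did not overlap between strains in 18 of the 33 families. For single features, the strains lay apart in 35.8% of all features with the mutant lower and in 33.7% with it higher. The same count for other pairs of genes was not made. In *RPL23* and *RPL42*, each with 1 copy called, it did overlap.

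**Figure D3:**
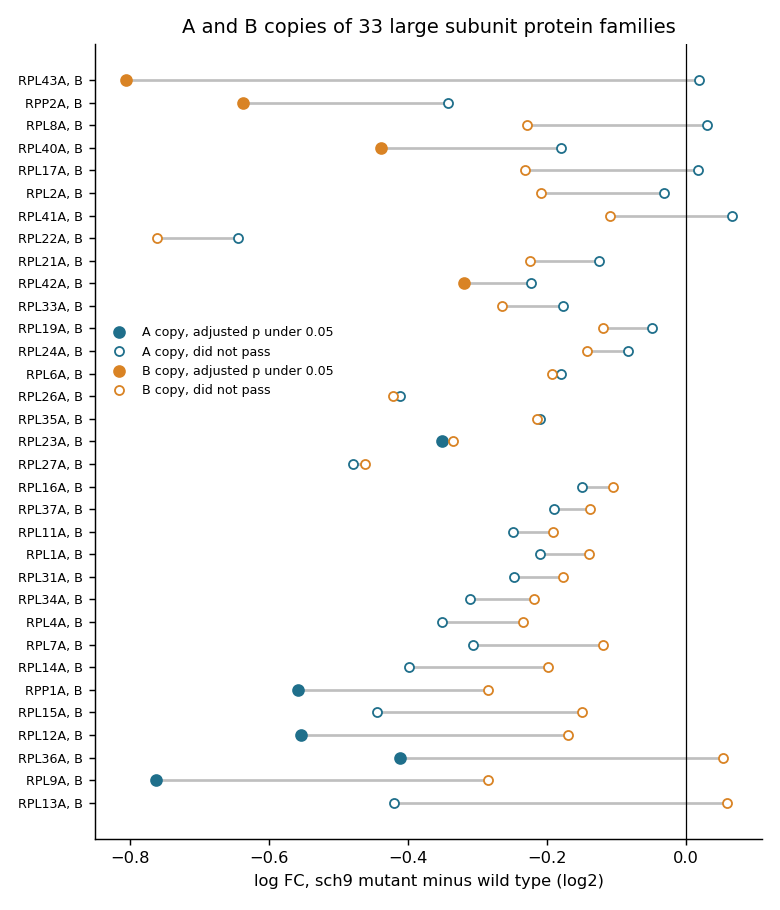
Log FC of the A copy (blue) and the B copy (orange) of the 33 families with both copies measured, sch9 mutant minus wild type on the log2 scale, ordered by A minus B. Filled points passed at an adjusted p under 0.05. The longest line is that of *RPL43*, with B at -0.81 and A at 0.02, and no family has both points filled. Of the 66 points 9 are filled, beside 12.1% of all features called lower.

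Other families had nearly the same log FC in both copies. The difference was under 0.05 in size in 6 families, *RPL35* (-0.21 in A and -0.21 in B), *RPL26* (-0.41 and -0.42), *RPL6* (-0.18 and -0.19), *RPL23* (-0.35 and -0.34), *RPL27* (-0.48 and -0.46) and *RPL16* (-0.15 and -0.10). The copies of *RPL23* and those of *RPL35* are known to encode identical proteins. Where coding sequences are nearly the same, a probe may bind transcripts of both copies, and equal values then need not be separate measurements. The probe sequences were not used here, so which probes tell the copies apart was not tested. When A and B of each family were averaged before the fit, 6 of 46 features were lower and 0 were higher. Over all features 753 of 6193 were lower in that fit.

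Small subunit genes had log FC values close to those of the large subunit. Of 55 measured genes named *RPS* with a number, 10 were lower, or 18.2% against 12.1% of all features. The other 45 did not pass, 0 being higher, against 14.6% of all features. The median log FC was -0.25, with a negative value in 45. The count of lower genes was 0 without replicate 2 of the mutant, 5 without its replicate 1, and it was 27 without replicate 2 of the wild type. When the other wild-type array was left out, 3 were higher. Calls among all features moved in the same directions in these fits. The difference between the subunits in the mean log FC was -0.01 (SE 0.02), with overlapping arrays (exact permutation test, p = 0.667). *RPS26B*, which encodes a protein at the mRNA exit, had a log FC of -1.13 (SE 0.22, adjusted p = 0.0222) and was the 1 cytosolic ribosomal protein gene below -1 that passed. *RPS22A* followed with -0.96 (adjusted p = 0.0301).

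Mitochondrial large subunit genes, whose proteins form the ribosome of that organelle, had log FC values around 0. Of 30 genes named *MRPL* with a number, 5 were higher and 25 did not pass, 0 being lower, with a median log FC of 0.03. The share called higher, 16.7%, stood beside 14.6% of all features. Fewer were called higher when either mutant array was left out, and so it was among all features. The mean log FC of the cytosolic genes minus that of the mitochondrial genes was -0.35 (SE 0.20), without overlap of the strains (exact permutation test, p = 0.33, the smallest possible). *MRPL4* had the highest value with 0.56 (SE 0.09, adjusted p = 0.0131).

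Factors that assemble the large subunit had lower log FC values than the genes of the proteins they assemble. Among 45 assembly factors measured, 19 passed as lower, or 42.2% against 12.1% of all features. The other 26 did not pass and 0 passed as higher, against 14.6% of all features. The median log FC was -0.64. The mean log FC of the large subunit genes minus that of the assembly factors was 0.33 (SE 0.13), with the strains apart (exact permutation test, p = 0.33, the smallest possible). *NOG2*, a GTPase of the precursor particles, had -1.24 (adjusted p = 0.0411), *SPB1*, an rRNA methyltransferase, -1.12 (adjusted p = 0.0156), and *MAK21*, a factor of early precursors, -1.02 (adjusted p = 0.0370). The assembly factors also differed between replicates, the median of replicate 1 minus replicate 2 being 0.48 for the wild type and 0.23 for the mutant. As for all features, the calls of the assembly factors changed with the array left out. Without replicate 2 of the mutant 0 of them were lower, without its replicate 1 there were 7, and without replicate 2 of the wild type there were 40.

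**Figure D4:**
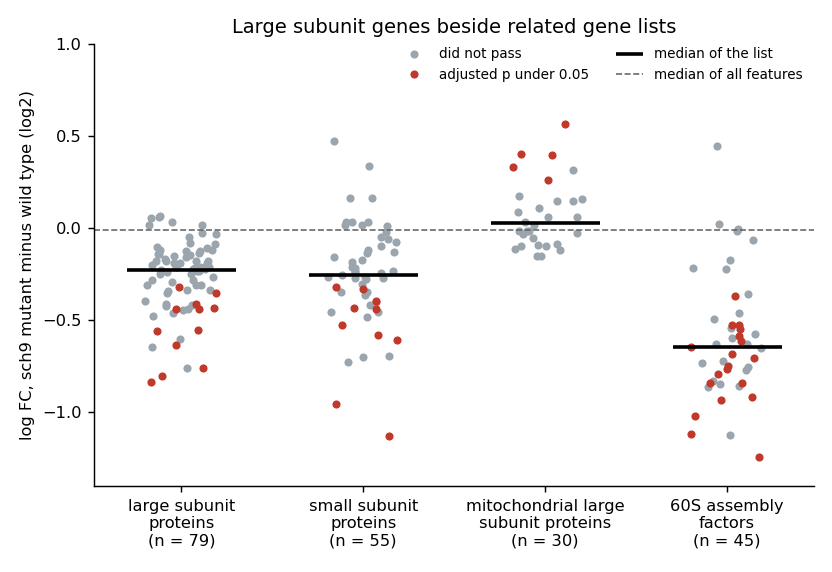
Log FC of the genes of 4 lists, sch9 mutant minus wild type on the log2 scale. Each point is a gene, red if it passed at an adjusted p under 0.05, the black bar is the median of the list and the dashed line the median of all features. Large and small subunit genes have medians of -0.23 and -0.25, mitochondrial large subunit genes 0.03 and 60S assembly factors -0.64.

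Chaperones and recruitment factors act on single large subunit proteins. Of 4 measured genes of this kind 3 were lower and 0 were higher, but without replicate 1 of the mutant *RRB1* alone was lower and without its replicate 2 there were 0. With all 4 arrays, 12.1% of all features were lower and 14.6% were higher. *RRB1*, the chaperone of Rpl3, fell by 1.09 on the log2 scale (SE 0.19, adjusted p = 0.0156) and *SQT1*, the chaperone of Rpl10, by 0.66 (SE 0.14, adjusted p = 0.0246). *YVH1*, the phosphatase that releases Mrt4 so that the stalk can form, fell by 0.54 (SE 0.12, adjusted p = 0.0285), while *MRT4* itself had -0.68 (SE 0.24, adjusted p = 0.0916). The client genes *RPL3* and *RPL10* did not pass the test, as given above. Of 2 measured genes of modifying enzymes, *RMT2*, the arginine methyltransferase of Rpl12, fell by 1.06 (SE 0.15, adjusted p = 0.00993). *RKM4*, a lysine methyltransferase of Rpl42 listed on the array as *RMS1*, had -0.20 (adjusted p = 0.0969).

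Among regulators of ribosomal protein genes, 7 were measured. Of these 3 passed as higher, or 42.9% against 14.6% of all features, 4 did not pass and 0 passed as lower. Only 1 of them, *RAP1*, was higher without replicate 1 of the mutant, and 0 were without its replicate 2. Higher calls among all features also became fewer without either mutant array. *RAP1*, whose product binds the promoters of ribosomal protein genes, had log2 intensities of 8.03 and 7.95 in the wild type against 8.69 and 8.77 in the mutant. This is a log FC of 0.74 (SE 0.08, adjusted p = 0.00455). The strains were far apart compared with their replicates. *STB3*, a repressor that acts on ribosome biogenesis genes in starved cells, rose by 0.51 (SE 0.07, adjusted p = 0.0103) and *DOT6*, another such repressor, by 0.35 (SE 0.08, adjusted p = 0.0321).

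The coactivator gene *IFH1* had 9.36 and 8.68 in the wild type and 8.69 and 8.42 in the mutant, a log FC of -0.47 (SE 0.24, adjusted p = 0.199). Its strains overlapped, and it was lower in the blocked fit and in that without replicate 2 of the wild type. *FHL1* had a log FC of -0.05, *SFP1*, an activator of ribosomal genes, of -0.02, and *HMO1*, which binds many ribosomal protein promoters, of 0.19, none of which passed.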

How the data were processed

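Cy3-labelled RNA of each culture was read on Agilent yeast arrays, all 4 on slide 1. For normalisation the authors used the quantile method of limma under R 2.14.2. The deposited values are log2 intensities, 1 per probe for 6227 probes. How background was handled is not stated in the sources. A symbol names 4061 probes, and the 2166 without one are not assigned to genes here. Averaging probes that share a symbol gave 6226 features, and each of the 79 genes has 1 probe.

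The contrast sch9-deleted minus wild type was estimated by lmFit and eBayes (limma 3.58.1, R 4.3.3) with Benjamini-Hochberg adjustment over all features, and the fit was tested on simulated data. Where copies or lists are compared, the SE comes from the spread between the replicates of each strain and not from limma. Groups came from the sample titles. With 4 arrays their number limits the precision. Plots were drawn with matplotlib 3.10.9.

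The members, the lists and the alternatives were chosen with earlier results of these data known. Genes given with values per array are the 6 lowest and 6 highest log FC, all stalk genes, single-copy genes that passed and the 6 families with the largest difference between copies. Groups by role, *RPL3*, *RPL10*, *RPL25*, *RPL40B*, *RPL23A* and *RPL42B* and the families with equal copies were added after values were seen, and from each other list a few of the lowest or highest genes that passed and all chaperones and regulators are named. RefSeq names of assembly R64 matched all 79 symbols. Lists were completed through its synonyms, with 45 of 54 assembly factors, 4 of 6 chaperones, 2 of 8 modifying enzymes and 7 of 9 regulators measured. Alternatives were other scalings, a filter on low values, a trend with robust hyperparameters, the brightest probe, a replicate block and leaving out each array. The alternative that merges copies by protein identity was not run, since protein sequences were not used here.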

Additional observations from a re-analysis of the deposited data

How the results depend on the processing

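The number of large subunit genes called lower, 12, was 28 at an unadjusted p (35.4% against 21.0% of all features). It was 36 with the replicate number as a block (replicate block, 45.6% against 21.1%). With the copies of a family averaged it was 6 of 46 features, against 753 of 6193 over all features. That alternative was chosen after seeing the data. Leaving out each array in turn gave 0 to 36 genes lower, 0 to 2 higher, and 0 to 3 with a log FC below -1. The 36 came without replicate 2 of the wild type, the 0 without replicate 2 of the sch9-deleted strain. The median log FC ranged from -0.35 to -0.14 over these fits and from -0.24 to -0.21 under the other normalisations, where the same 12 genes passed except *RPL12A* and *RPL29* with scaling to the 75th percentile. *RPL29*, *RPL42B* and *RPL43B* did not pass with an intensity trend and robust hyperparameters. The log FC of *SCH9* ranged from -3.03 to -2.89 without each array in turn. With the block 31 small subunit genes and 37 assembly factors were lower. The replicate differences of the 2 strains had a correlation of 0.53 over all features, but 2 replicate numbers do not show whether they pair the cultures, and the labels do not say so. A strain left with 1 array is assumed to vary like the other. How far each probe lay above background was not analysed here.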
